A study of Mus musculus with 2 samples.

Results

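The 10 genes described here encode muscle enzymes of glycogen breakdown and glycolysis: Pygm, Hk2, Pfkm, Aldoa, Gapdh, Pgk1, Pgam2, Eno3, Pkm and Ldha. They were chosen by symbol, as the enzyme or the muscle form of the enzyme at successive steps of the pathway. They are 10 of the 32285 genes listed in the deposited matrices. Each was followed enzyme by enzyme in nuclei of each class and library, as unique molecular identifiers (UMIs) of the gene per 1000000 UMIs of the class (CPM). The levels were set against the barcodes of 200 to under 500 UMIs, taken here as droplets without an intact nucleus, which was not tested.

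Nuclei came from a fast muscle of the shin, the tibialis anterior, of male mice of 16 to 20 weeks. All mice had chronic kidney disease, and their femoral artery, which supplies the leg, had been ligated 5 days before. The strain label of both groups is the same, AHRtm3.1Bra/J, a floxed allele of the aryl hydrocarbon receptor gene Ahr, combined with a hormone-inducible Cre recombinase, Tg(ACTA1-cre/Esr1*)2Kesr/J. Its promoter, that of skeletal actin, is active in muscle fibres and not in the other cells of the tissue. The groups are AHRfl/fl and AHRmKO, with 1 library each, called below the control-labelled and the knockout-labelled library. The labels give neither an inducing agent nor the number of animals behind a library, so every difference below is one between 2 libraries, and no test between groups was possible.

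Glycogen phosphorylase (Pygm in muscle) cuts glucose units from glycogen, the sugar store of the fibre. Hexokinase instead brings in glucose from the blood by phosphorylating it, and both routes meet above phosphofructokinase (Pfkm), the main control point of glycolysis. Aldolase (Aldoa) then splits the sugar, Gapdh, Pgk1, Pgam2 and Eno3 carry the products on, pyruvate kinase (Pkm) makes pyruvate, and lactate dehydrogenase (Ldha) turns it into lactate when oxygen or mitochondrial capacity is short. Fast fibres rely on this pathway, and their cytoplasm is rich in its messenger RNAs, so broken fibres are a source of such RNA outside nuclei. Nuclei hold mostly unspliced and newly made RNA, so a nuclear level is not a level of the cytoplasmic message or of the enzyme.

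After filters, 15832 nuclei remained in the control-labelled library and 7522 in the knockout-labelled library, with medians of 3672.5 and 3598 UMIs. Clusters were named from marker genes, with "-like" for names rebuilt in this way, and the members were left out of the genes used to cluster. Several classes were held by different clusters in the libraries. The 386 adult fibre-like nuclei of the control-labelled library lay in cluster 9 but for 1, while 525 of the 586 in the other library lay in cluster 21. Regenerating myonucleus-like nuclei (1615 and 1450) lay mostly in cluster 7 and cluster 20, satellite cell-like nuclei (2691 and 2159) mostly in clusters 15 and 12, and macrophage-like nuclei (7085 and 2415) mostly in clusters 0 and 3. Fibroblast-like (1407 and 607), endothelial-like (271 and 162) and adipocyte-like nuclei (111 and 79) each came from 1 cluster of both libraries. Differentiating myocyte-like nuclei (547 and 6) and an unnamed fibre cluster (1618 and 2), which carried 8 of 8 regenerating markers but had the adult marker Mybpc1 among its leading genes, gave levels in the control-labelled library only. The small number of differentiating myocyte-like nuclei in the knockout-labelled library, and so the make-up of its satellite-like class, depended on the clustering: it was 634 with the libraries clustered separately, and 1 such cluster held 1075 at resolution 1.6. Of the adult fibre markers, Myh1, Myh2 and Mybpc1 did not stand 2-fold above the other classes in both libraries. In the control-labelled library the regenerating markers Myh8, Actc1 and Chrna1 and the differentiating myocyte markers Mymk and Mymx were also under 2-fold. The satellite marker Myod1 was under 2-fold in both libraries, and in the control-labelled one it was lower in its own class (54.6 CPM) than in the others (76.6). The libraries shared 31 nucleus barcodes. Ahr stood at 4.76 and 4.88 CPM in adult fibre-like nuclei; whether the counted 3′ tags lie in the deleted part is not shown by the files, so this does not check the label.

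The RNA of the low barcodes, taken as RNA outside nuclei, differed between the libraries in these very genes. In barcodes of 200 to under 500 UMIs, 7 of the 10 enzymes were lower by 2-fold or more in the knockout-labelled library, where 22.6% of all genes tested were, and none was higher, where 8.92% were. Gapdh went from 1492 to 139 CPM, Aldoa from 862 to 150 and Eno3 from 557 to 116. Pygm went the other way, from 61.8 to 110, while Hk2 (29.1 and 23.9) and Pfkm (54.3 and 45.3) differed little. The same barcodes held 3.36% mitochondrial UMIs in the control-labelled library and 16.8% in the other. The nuclear-encoded respiratory chain genes had a median log2 ratio of -2.59 there, against -1.98 for the 10 enzymes and -0.11 for all genes. Fibre RNA also appeared in the sums of classes that do not form fibres. In macrophage-like nuclei 9 abundant fibre transcripts (actin, creatine kinase, troponins and others) stood at 18.1% of their level in these barcodes in the control-labelled library. In the other library they stood at 15.8%. The macrophage-like class includes cluster 4 (737 and 16 nuclei), with a median of 6340 UMIs. Its leading genes 4930512H18Rik, Gm28376 and Gm11149 were also leading genes of the regenerating-like cluster 7. Whether droplets with more than 1 nucleus raised the 18.1% was not tested. For each class outside fibres, the percentage found there times an enzyme's level in the barcodes is given below as its free RNA level. A class that makes fibre transcripts of its own gets too high a value. Where the free RNA level of macrophage-like nuclei is subtracted below, 18.1% and 15.8% were taken as the free RNA share. What remained was divided by the rest of the UMIs, so subtracted values are scaled up and can exceed unsubtracted ones.

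**Figure D1:**
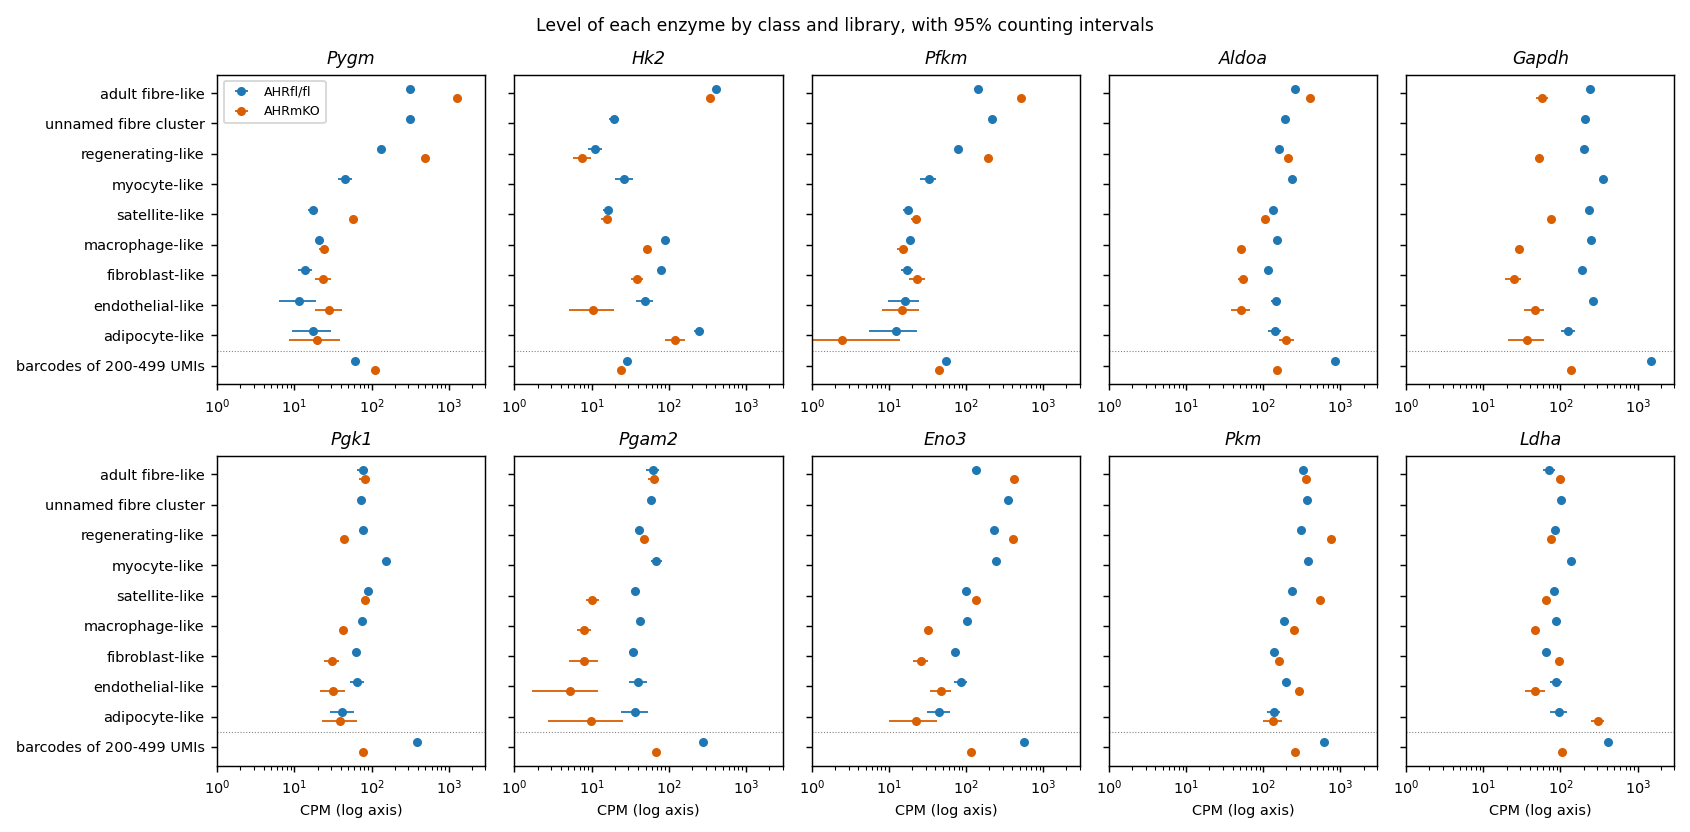
Level of each enzyme in CPM (horizontal log axis) in each class and, under the dotted line, in barcodes of 200 to under 500 UMIs; blue is the library labelled AHRfl/fl, orange the library labelled AHRmKO, points are sums over the class and bars 95% counting intervals. Pygm, Pfkm and Eno3 are highest in the muscle classes in both libraries, Hk2 is at 407 and 343 in adult fibre-like and at 11.0 and 7.49 in regenerating-like nuclei, and Gapdh spans only 2.86-fold and 3.03-fold over the classes within a library.

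Pygm, which opens glycogen breakdown, was higher in the knockout-labelled library in adult and regenerating fibre nuclei. Its gene lies on chromosome 19 (6384399 to 6398459, plus strand, GRCm38, from the GENCODE M21 annotation). Adult fibre-like nuclei held 314 CPM (95% counting interval 289 to 340) in the control-labelled and 1293 (1244 to 1343) in the knockout-labelled library, a log2 ratio of 2.04. Regenerating-like nuclei held 132 and 487, a log2 ratio of 1.88, and satellite-like nuclei 17.5 and 57.3, a log2 ratio of 1.68. The latter 2 ratios depended on the nuclei taken, with 0.81 in regenerating-like nuclei at a minimum of 1000 UMIs and 0.30 in satellite-like nuclei with the libraries clustered separately. The unnamed fibre cluster of the control-labelled library stood at 316, level with its adult fibre-like nuclei. Outside the muscle lineage Pygm stayed between 11.4 and 28.4 in both libraries. In satellite-like nuclei of the knockout-labelled library the level of 57.3 was next to the free RNA level of 56.3 that the fibre transcripts of that class give, since those transcripts stood there at 51.0% of their level in the barcodes. That free RNA level is too high if the class makes fibre transcripts of its own. With the free RNA level of macrophage-like nuclei subtracted instead, satellite-like nuclei held 7.66 and 47.3, a log2 ratio of 2.55. Over nuclei thinned to 2000 UMIs each, 40.4% of adult fibre-like nuclei had a Pygm UMI in the control-labelled library and 87.7% in the other, against 3.39% and 4.64% of macrophage-like nuclei (64.2% and 95.2%, and 6.32% and 8.74%, before thinning).

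Hk2, the hexokinase of insulin-sensitive tissues, divided adult from regenerating muscle nuclei in both libraries. Its gene covers 49.4 kb of chromosome 6 (82725025 to 82774454, minus strand) and overlaps Gm17034 on the other strand. Adult fibre-like nuclei held 407 (379 to 437) and 343 (318 to 369) CPM, the highest level of any class in both libraries. Regenerating-like nuclei held 11.0 (8.87 to 13.5) and 7.49 (5.69 to 9.68), the lowest of any class, so that the range over classes was 37.0-fold and 45.8-fold. Of nuclei thinned to 2000 UMIs, 44.8% and 47.1% of the adult fibre-like and 2.04% and 1.45% of the regenerating-like ones had an Hk2 UMI. The unnamed fibre cluster stood with the regenerating nuclei at 19.5, and differentiating myocyte-like nuclei held 26.3. Hk2 was also above the barcodes of 200 to under 500 UMIs in adipocyte-like nuclei (250 and 121), macrophage-like nuclei (89.9 and 52.0) and fibroblast-like nuclei (78.4 and 39.1). In macrophage-like nuclei this was 17.1 and 13.8 times the free RNA level, the highest such multiple of the 10 enzymes there in both libraries. The levels were lower in the knockout-labelled library in each class, but in adult fibre-like nuclei this turned with how the class was drawn. With the libraries clustered separately the adult level was 103 and 354 (log2 ratio 1.77), and with classes from each nucleus's marker UMIs 60.6 and 206 (1.75), against -0.25 here, so the range over classes in the control-labelled library also depends on this choice. The difference passed 2-fold in endothelial-like nuclei (48.7 and 10.5, from 64 and 10 UMIs, log2 ratio -2.16) and adipocyte-like nuclei (log2 ratio -1.04), and was smallest in satellite-like nuclei (16.1 and 15.6), where the counting interval of the ratio included 0 and the direction turned under some alternatives (log2 ratios of -0.84 to 0.15).

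The start regions of these genes are shown because Hk2 and Pygm, which supply glycolysis from blood glucose and from glycogen, differed in where they were high, and Ldha is a textbook target of the hypoxia-inducible factors. Each runs from 250 bases before to 50 bases after a start listed for the gene, 5′ to 3′ on the gene's strand, from RefSeq on GRCm38.p6. The Ldha window lies inside the span given below for that gene (46841475 to 46855627), so it is not at the start of that span. Capitals mark ACGTG on either strand (CACGT on the strand shown), the core of the hypoxia response element. The windows are chr6:82774405-82774704 (minus strand), chr19:6384158-6384457 (plus strand) and, for the first of the pair of Ldha entries, chr7:46845554-46845853 (plus strand).
Hk2: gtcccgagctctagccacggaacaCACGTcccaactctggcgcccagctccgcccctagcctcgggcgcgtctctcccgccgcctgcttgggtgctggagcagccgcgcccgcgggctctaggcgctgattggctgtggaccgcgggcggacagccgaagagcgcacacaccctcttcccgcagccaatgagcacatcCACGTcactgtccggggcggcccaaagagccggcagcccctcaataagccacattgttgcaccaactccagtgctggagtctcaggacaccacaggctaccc
Pygm: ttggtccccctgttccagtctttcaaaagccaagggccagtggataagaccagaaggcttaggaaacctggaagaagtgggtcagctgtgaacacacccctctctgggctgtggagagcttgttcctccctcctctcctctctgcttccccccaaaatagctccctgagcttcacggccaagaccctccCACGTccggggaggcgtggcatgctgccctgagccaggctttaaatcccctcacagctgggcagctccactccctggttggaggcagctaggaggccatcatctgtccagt
Ldha: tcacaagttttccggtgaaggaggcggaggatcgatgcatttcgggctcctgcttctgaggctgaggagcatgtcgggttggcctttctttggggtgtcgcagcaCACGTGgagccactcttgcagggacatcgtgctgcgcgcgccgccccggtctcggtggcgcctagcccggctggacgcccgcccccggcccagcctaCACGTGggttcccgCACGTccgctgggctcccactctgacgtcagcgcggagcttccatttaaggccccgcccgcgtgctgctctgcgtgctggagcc
A search of both strands found 2 matches in Hk2, 1 in Pygm and 5 in this entry of Ldha, in which CACGTG counts once on each strand. The other Ldha entry holds 0. Of the 17 entries that the 10 enzymes have, 10 hold a match, in 8 of the 10 genes, and 19.6% of 32851 mouse promoter entries of this length do. That share is per entry and not per gene, and overlapping Aldoa entries hold the same match. CANNTG, the E-box bound by the myogenic factors among others, was found in 13 of the 17 entries, in 8 of the 10 genes, and in 72.3% of all entries; it can overlap ACGTG, as in CACGTG. A match is a run of letters, not a measured binding site.

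Pfkm, the muscle phosphofructokinase, followed Pygm. Its gene (chromosome 15, 98092589 to 98132451, plus strand) overlaps Senp1 on the other strand, and counting by strand is not stated. Adult fibre-like nuclei held 144 (127 to 162) and 513 (482 to 545) CPM, a log2 ratio of 1.83. Regenerating-like nuclei held 80.0 and 194, a log2 ratio of 1.27, and the unnamed fibre cluster held 218. That ratio was 0.34 with the unnamed fibre cluster added and -0.030 at a minimum of 1000 UMIs, so its size and direction depend on which nuclei are taken. Differentiating myocyte-like nuclei stood at 32.7 and satellite-like nuclei at 17.6 and 22.2. Outside muscle the level was 2.47 to 23.4, with 1 to 520 UMIs per class. The low barcodes, with 54.3 and 45.3, did not show the difference between the libraries that the fibre nuclei showed.

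Aldoa, aldolase A, was spread far more evenly. Its main entry (chromosome 7, 126795234 to 126800751, minus strand) overlaps Fam57b on the other strand, and a second entry of the same symbol was kept apart. In the control-labelled library the classes ran only from 115 in fibroblast-like to 258 in adult fibre-like nuclei. In the knockout-labelled library they ran from 51.5 in endothelial-like to 408 in adult fibre-like nuclei. The macrophage-like level was 149 and 51.8, beside free RNA levels of 156 and 23.7. Adult fibre-like nuclei (258 and 408) were 0.66 higher on the log2 scale in the knockout-labelled library, while macrophage-like nuclei were lower, with a log2 ratio of -1.51. With the free RNA level of macrophage-like nuclei subtracted, adult fibre-like nuclei held 124 and 456, a log2 ratio of 1.87. Macrophage-like nuclei then came to 0, the lowest value allowed, and 33.4, so the lower level there rests on unsubtracted counts.

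Gapdh (chromosome 6, 125161715 to 125166467, minus strand), which makes the high-energy intermediate that Pgk1 uses, was lower in the knockout-labelled library in each of the 7 classes compared. This order rests on unsubtracted counts. With the free RNA level of macrophage-like nuclei subtracted, Gapdh came to 0 in the control-labelled library in all 7 classes and to 3.40 to 63.0 in the knockout-labelled library, but 0 is the lowest value the subtraction allows, so no order or fold was taken from these values. Before subtraction adult fibre-like nuclei held 243 (221 to 266) and 58.0 (48.1 to 69.5) CPM, a log2 ratio of -2.05. Macrophage-like nuclei held 248 and 29.0, a log2 ratio of -3.07, and fibroblast-like nuclei 191 and 24.8, a log2 ratio of -2.92. Its log2 ratio in the low barcodes was -3.42, lower than in any class. In the control-labelled library the levels in satellite-like, macrophage-like, fibroblast-like and endothelial-like nuclei (236, 248, 191 and 262) lay close to their free RNA levels (226, 271, 193 and 232). They exceeded it by the counting interval in satellite-like (227 to 245) and endothelial-like nuclei (235 to 291) and not in the other 2 classes. Within muscle, adult fibre-like (243), unnamed fibre (205) and regenerating-like nuclei (203) of the control-labelled library stood at or under the macrophage-like level of 248, whereas Pygm in adult fibre-like nuclei stood far above its macrophage-like level of 20.8. Differentiating myocyte-like nuclei of that library held more Gapdh than the macrophage-like ones, 357 (333 to 383).

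Pgk1, phosphoglycerate kinase (chromosome X, 106187100 to 106203699, plus strand), held 77.2 and 81.5 in adult fibre-like nuclei, with overlapping counting intervals of 65.2 to 90.8 and 69.6 to 94.8. Regenerating-like nuclei held 76.8 and 43.9. Differentiating myocyte-like nuclei had its highest level, 154. The fibre transcripts of that class give a free RNA level of 119, which is too high if the class makes such transcripts of its own. Those of macrophage-like nuclei give 71.2. In macrophage-like nuclei Pgk1 stood at 75.4 beside a free RNA level of 71.2 in the control-labelled library, and at 42.5 beside 12.4 in the other. So its level was 1.06 times the free RNA level in the first and 3.43 times in the second. Its log2 ratio passed 2-fold in fibroblast-like and endothelial-like nuclei, at -1.04 in each. Over the alternatives these ratios ran from -1.18 to -0.91 and from -1.75 to -0.83, so neither passed 2-fold under each. With the free RNA level of macrophage-like nuclei subtracted, the control-labelled level came to 0 in both classes, so both ratios rest on unsubtracted counts.

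Pgam2, the muscle phosphoglycerate mutase (chromosome 11, 5801640 to 5803733, minus strand), is the shortest of the 10 genes and had low counts in nuclei. Adult fibre-like nuclei held 61.9 and 63.9, and regenerating-like nuclei 41.0 and 48.1, with log2 ratios of 0.05 and 0.23. With the free RNA level of macrophage-like nuclei subtracted, adult fibre-like nuclei held 13.4 and 62.9, a log2 ratio of 2.19. The unsubtracted control-labelled level had a counting interval of 51.2 to 74.1, whose lower end was next to the subtracted level of 50.8. The size of that ratio is thus poorly fixed. In macrophage-like nuclei Pgam2 was 42.5 and 7.94, under free RNA levels of 50.8 and 10.9. It did not exceed the free RNA level by its counting interval in any of the 5 classes outside fibres in either library, and no expression in them was detectable by this measure. Its ratio there, -2.35 in macrophage-like and -1.77 in satellite-like nuclei, stood beside a ratio of -2.01 in the low barcodes.

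Eno3, the muscle enolase (chromosome 11, 70657202 to 70662513, plus strand), was high in fibre classes. Adult fibre-like nuclei held 136 (120 to 153) and 422 (394 to 451), a log2 ratio of 1.63, and regenerating-like nuclei 233 and 409, a log2 ratio of 0.81. The adult ratio was 0.45 with the libraries clustered separately and 0.50 with classes from marker UMIs, both under 2-fold, and 3.48 with the free RNA level of macrophage-like nuclei subtracted (42.5 and 479 CPM). In the control-labelled library regenerating-like nuclei stood above adult ones, and the unnamed fibre cluster stood higher still at 350. In the knockout-labelled library adult and regenerating nuclei had overlapping intervals (394 to 451 and 395 to 424). Macrophage-like nuclei held 102 and 32.1, a log2 ratio of -1.65, beside free RNA levels of 101 and 18.3. With that free RNA level subtracted, 1.01 and 16.4 remained in macrophage-like nuclei, so the lower level there holds for unsubtracted counts only.

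Pkm, pyruvate kinase (chromosome 9, 59656368 to 59679375, plus strand), stood above the free RNA level by its counting interval in each of the 5 classes outside fibres in both libraries. Satellite-like nuclei held 233 and 544, macrophage-like nuclei 188 and 250 and fibroblast-like nuclei 140 and 161. These were 2.51 and 4.10, 1.68 and 6.09, and 1.76 and 4.59 times the free RNA level. Regenerating-like nuclei of the knockout-labelled library had the highest level of all, 745 (726 to 765), against 313 (301 to 325) in the other library, a log2 ratio of 1.25. Satellite-like nuclei had a log2 ratio of 1.22. Adult fibre-like nuclei did not share this difference over the whole class, with 330 (305 to 357) and 360 (334 to 387). Within cluster 9, the adult cluster of both libraries, they held 331 and 711, a log2 ratio of 1.10 (0.85 to 1.35). The low barcodes differed the other way (615 and 260). UMIs near the 3′ end cannot tell the muscle splice form of Pkm from the form of dividing cells.

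Ldha, lactate dehydrogenase A (chromosome 7, 46841475 to 46855627, plus strand), held 71.4 and 100 in adult fibre-like nuclei and 85.4 and 75.5 in regenerating-like nuclei. Its highest level was in adipocyte-like nuclei of the knockout-labelled library, 304 (253 to 363) from 123 UMIs, against 94.9 (74.0 to 120) from 70 UMIs in the control-labelled library, which is a log2 ratio of 1.67. Fibroblast-like nuclei held 65.2 and 95.3, of which the second was 6.71 times the free RNA level. Of the adipocyte-like nuclei thinned to 2000 UMIs, 21.6% (14.4% to 30.4%) and 38.0% (27.3% to 49.6%) had an Ldha UMI, against 17.1% and 9.23% of macrophage-like nuclei (42.3% and 49.4%, and 27.1% and 17.5%, before thinning). The control-labelled share thus did not stand above the macrophage-like one by its interval. Macrophage-like nuclei held 88.1 and 47.4, but 16.8 and 36.6 with the free RNA level subtracted, which turned the log2 ratio from -0.89 to 1.10.

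**Figure D2:**
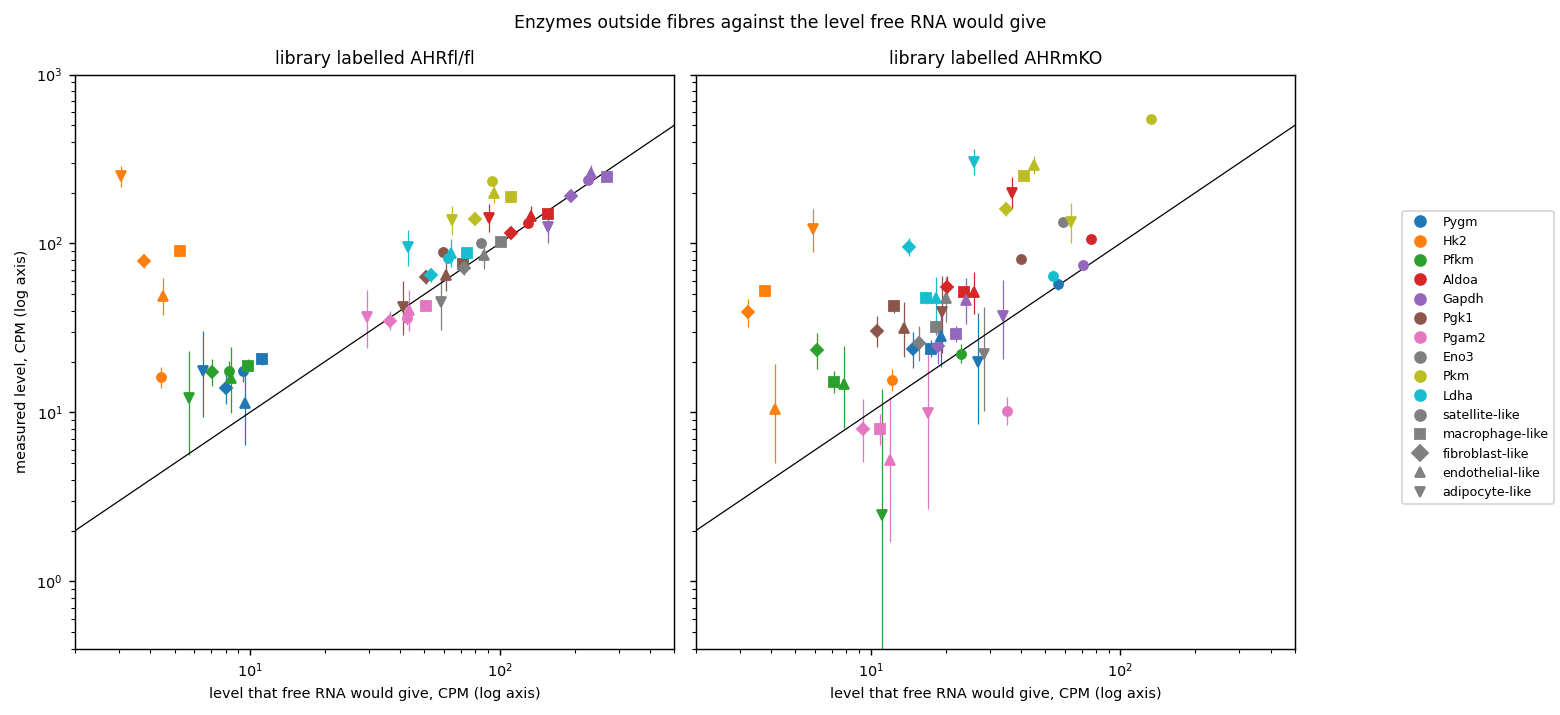
Measured level (vertical log axis) against the level that free RNA would give (horizontal log axis), both in CPM, for 10 enzymes (colours) in 5 classes outside fibres (symbols), 1 panel per library, with 95% counting intervals and the line of equality. In the library labelled AHRfl/fl, Gapdh, Aldoa, Eno3 and Pgam2 lie near the line, at 0.76 (Eno3) to 1.57 times (Aldoa), both in adipocyte-like nuclei. In those nuclei the interval of Aldoa lies above the line and that of Gapdh below it. Hk2 lies above the line, by 12.1 times or more in macrophage-like, fibroblast-like and adipocyte-like nuclei. In satellite-like nuclei of the library labelled AHRmKO it does so by as little as 1.28 times.

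Counted together, the enzymes did not share 1 direction between the libraries. In adult fibre-like nuclei 3 of 10 (Pygm, Pfkm and Eno3) were higher by 2-fold or more with a counting interval that leaves out 0, where 9.13% of the genes tested were, and 1 (Gapdh, by unsubtracted counts) was lower, where 18.3% were. The median log2 ratio was 0.30 over the 10 enzymes and -0.11 over all genes. In regenerating-like nuclei 3 (Pygm, Pfkm and Pkm) were higher, where 7.46% of genes were, and Gapdh was lower, where 17.4% were. At a minimum of 1000 UMIs none of the 10 was higher in regenerating-like nuclei, and the Pfkm ratio turned to -0.030. In satellite-like nuclei 2 were higher (Pygm and Pkm; 6.2% of genes) and 2 lower (Gapdh and Pgam2; 17.8%).

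Outside the muscle lineage the differences were mostly downward. Macrophage-like nuclei had 4 enzymes lower (Aldoa, Gapdh, Pgam2 and Eno3; 19.4% of genes) and none higher (3.14%), with a median log2 ratio of -0.85 against -0.17 over all genes. Fibroblast-like nuclei had 5 lower (Aldoa, Gapdh, Pgk1, Pgam2 and Eno3; 18.2%) and none higher (5.61%). Endothelial-like nuclei had 5 lower (Hk2, Aldoa, Gapdh, Pgk1 and Pgam2; 14.6%) and Pygm higher, from 15 and 27 UMIs (5.03%). That Pygm ratio ran from 0.19 to 1.61 over the alternatives. It no longer counted as higher without a mitochondrial limit, with doublets kept, with thinned nuclei or at resolution 0.4. In adipocyte-like nuclei Hk2, Gapdh and Pgam2 were lower (13.4%) and Ldha higher (7.35%). All enzymes named as lower in these classes, other than Hk2, were also lower by 2-fold or more in the low barcodes of the same library. With the free RNA level of macrophage-like nuclei subtracted from each class, only enzymes whose counting interval lay above that level in both libraries could be compared, 6 of 10 in macrophage-like and 4 of 10 in fibroblast-like nuclei. Each enzyme named as lower in these 2 classes was left out of that comparison. In the control-labelled library its level was at or near the lowest value that subtraction allows (0 to 1.01). The subtraction therefore could not show a lower level in the other library, and these calls rest on unsubtracted counts. In macrophage-like nuclei of the control-labelled library those counts stood at 0.95 (Aldoa), 0.92 (Gapdh), 0.84 (Pgam2) and 1.01 (Eno3) times the free RNA level. Of the enzymes kept, 3 were higher in macrophage-like nuclei, and 3 were higher and Hk2 lower in fibroblast-like nuclei. No share over all genes is given for these counts after subtraction, so they are not set against a background.

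**Figure D3:**
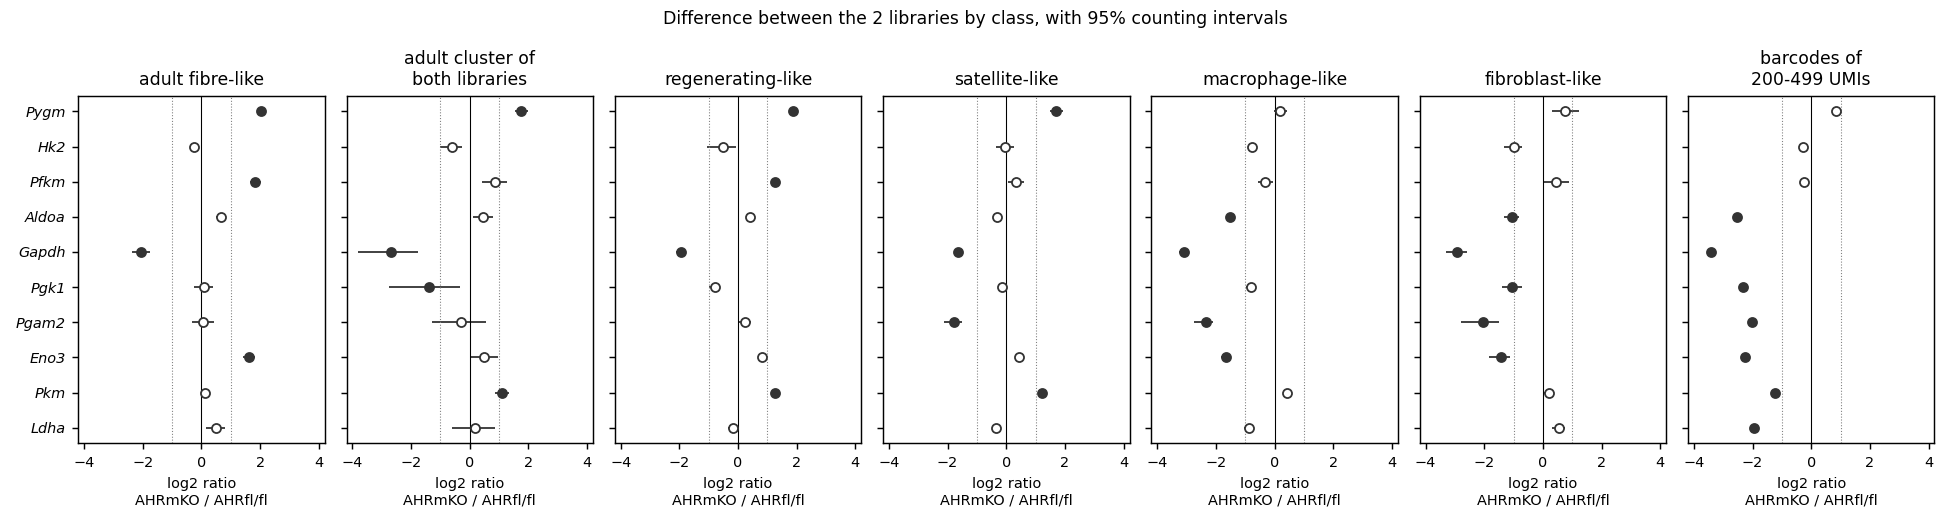
Log2 ratio between libraries, AHRmKO over AHRfl/fl as labelled (horizontal axis), for each enzyme, 1 panel per class and the last for barcodes of 200 to under 500 UMIs; filled points differ by 2-fold or more (dotted lines) with a 95% counting interval, drawn as bars, that leaves out 0. Pygm is at 2.04 and 1.88 in adult and regenerating fibres, and Gapdh is at -1.65 or lower in each panel.

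Cluster 9 was the only adult fibre-like cluster with 50 or more nuclei of both libraries (385 and 61). Within it Pygm held 310 and 1051 CPM, a log2 ratio of 1.76 (1.54 to 1.98). Pkm, level over the whole class, was 331 and 711 there, a log2 ratio of 1.10. Pfkm (141 and 257) and Eno3 (134 and 189) were 0.86 and 0.49 higher, under 2-fold, so their larger differences over the class came with cluster 21. Gapdh was lower by a log2 ratio of -2.67 and Pgk1 by -1.38, from 9 and 7 UMIs in the knockout-labelled library. These are 2 enzymes higher, where 6.37% of genes were, and 2 lower, where 8.34% were. With the unnamed fibre cluster joined to the regenerating-like nuclei, Pygm and Pkm stayed higher at log2 ratios of 1.08 and 1.11 (5.24% of genes were higher), Pfkm came to 0.34, and Hk2 at -1.01 joined Gapdh at -1.97 among the lower ones (17.6%).

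Adult fibre-like nuclei were also divided by their myosin UMIs into those with more Myh4, the myosin of type IIb fibres, than Myh1 and Myh2 together, and the reverse. This gave 238 and 54 nuclei in the control-labelled library, with 94 ties left out and 92 nuclei 1 UMI from the dividing line, and 366 and 208 in the other, with 12 ties and 13 nuclei 1 UMI from it. In the control-labelled library Myh1 was no higher in adult fibre-like nuclei (278 CPM) than in the other classes (302). The part of free RNA in this division was not tested. None of the 10 enzymes differed by 2-fold between these nuclei in either library. Of all genes, 1.61% and 7.1% were higher and 2.18% and 3.81% lower in the Myh4 nuclei. Pygm was the enzyme with the largest excess in Myh4 nuclei in both libraries, 227 against 383 (log2 ratio 0.75) and 999.5 against 1493 (0.58). Hk2 showed no such excess, with 372 against 414 and, in the knockout-labelled library, 416 against 309 (log2 ratio -0.43). At 54 nuclei the counting intervals of the control-labelled library reached across 0 for each enzyme but Pygm.

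Set against the barcodes of 200 to under 500 UMIs of the same library, the enzymes split by the class of nucleus and by library. In adult fibre-like nuclei of the control-labelled library Pygm, Hk2 and Pfkm were higher by 2-fold or more (log2 ratios of 2.33, 3.79 and 1.40; 16.6% of genes were higher) and 6 were lower (28.8% of genes), all but Pkm of the remaining 7. In the knockout-labelled library Pygm, Hk2, Pfkm, Aldoa and Eno3 were higher (10.8%) and Gapdh alone was lower (18.8%). In regenerating-like nuclei 1 was higher (Pygm; 21.6%) and 7 lower (28.2%) in the control-labelled library, and 4 were higher (Pygm, Pfkm, Eno3 and Pkm; 15.3%) and 2, Hk2 and Gapdh, lower (19.2%) in the other. In each of the other classes more enzymes were lower than the low barcodes by 2-fold or more than were higher. In the control-labelled library 9 of 10 were lower in satellite-like (19.7% of genes), macrophage-like (18.9%), fibroblast-like (20.2%), endothelial-like (17.4%) and adipocyte-like nuclei (17.4%). The tenth was Hk2 in each, higher by 2-fold or more in macrophage-like (24.3%), fibroblast-like (28.6%) and adipocyte-like nuclei (22.3%) and within 2-fold in satellite-like (31.9%) and endothelial-like ones (23.4%). In the knockout-labelled library the counts of lower enzymes were 2 in satellite-like (10.3%), 6 in fibroblast-like (11.8%), 7 in macrophage-like (17.0%) and 9, Hk2 among them, in endothelial-like nuclei (7.97%), and 5 were lower in adipocyte-like nuclei (7.9%). Higher there were Pkm in satellite-like (21.6%), Hk2 in macrophage-like (18.8%), and Hk2 and Ldha in adipocyte-like nuclei (15.8%), and none in fibroblast-like (21.0%) or endothelial-like ones (14.6%). Differentiating myocyte-like nuclei had 6 lower (18.4%) and none higher (24.6%). The unnamed fibre cluster had 5 lower (29.6%) and Pygm and Pfkm higher (22.9%).

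Gene length and the ratios over the low barcodes were also compared. Over the 10 genes Spearman's rho of genomic span with the ratio in adult fibre-like nuclei was 0.59 and 0.60, and over all genes 0.38 and 0.01. In regenerating-like nuclei it was 0.58 and 0.02 over the 10 genes, and 0.37 and -0.02 over all genes. The part of gene length in these ratios was not tested.

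Several members have sister genes in other tissues, and the share of a family's UMIs taken by the member was compared between classes, not between genes. Pygm took 96.6% and 99.3% of glycogen phosphorylase UMIs in adult fibre-like nuclei and 19.6% and 20.3% in macrophage-like nuclei. In satellite-like nuclei it took 38.4% and 67.6%. Hk2 took 95.1% and 96.0% of hexokinase UMIs in adult fibre-like nuclei but 21.4% and 11.8% in regenerating-like nuclei, so that in regenerating-like nuclei other hexokinases gave most of the UMIs. Its share was higher in several classes outside muscle, 88.0% and 77.8% in adipocyte-like, 60.2% and 46.9% in fibroblast-like and 44.9% and 29.0% in macrophage-like nuclei. Pfkm went from 21.9% and 19.5% of phosphofructokinase UMIs in satellite-like nuclei to 61.7% and 76.7% in regenerating-like and 86.9% and 96.4% in adult fibre-like nuclei. Eno3 took 53.3% and 76.3% of enolase UMIs in regenerating-like and 72.8% and 96.0% in adult fibre-like nuclei, and in macrophage-like nuclei it took 55.7% and 44.8%. Ldha kept a share of 78.1% to 96.8% in every class. In the low barcodes Pgam2 and Eno3 already took 59.2% and 65.3% of their families' UMIs in the control-labelled library.

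**Figure D4:**
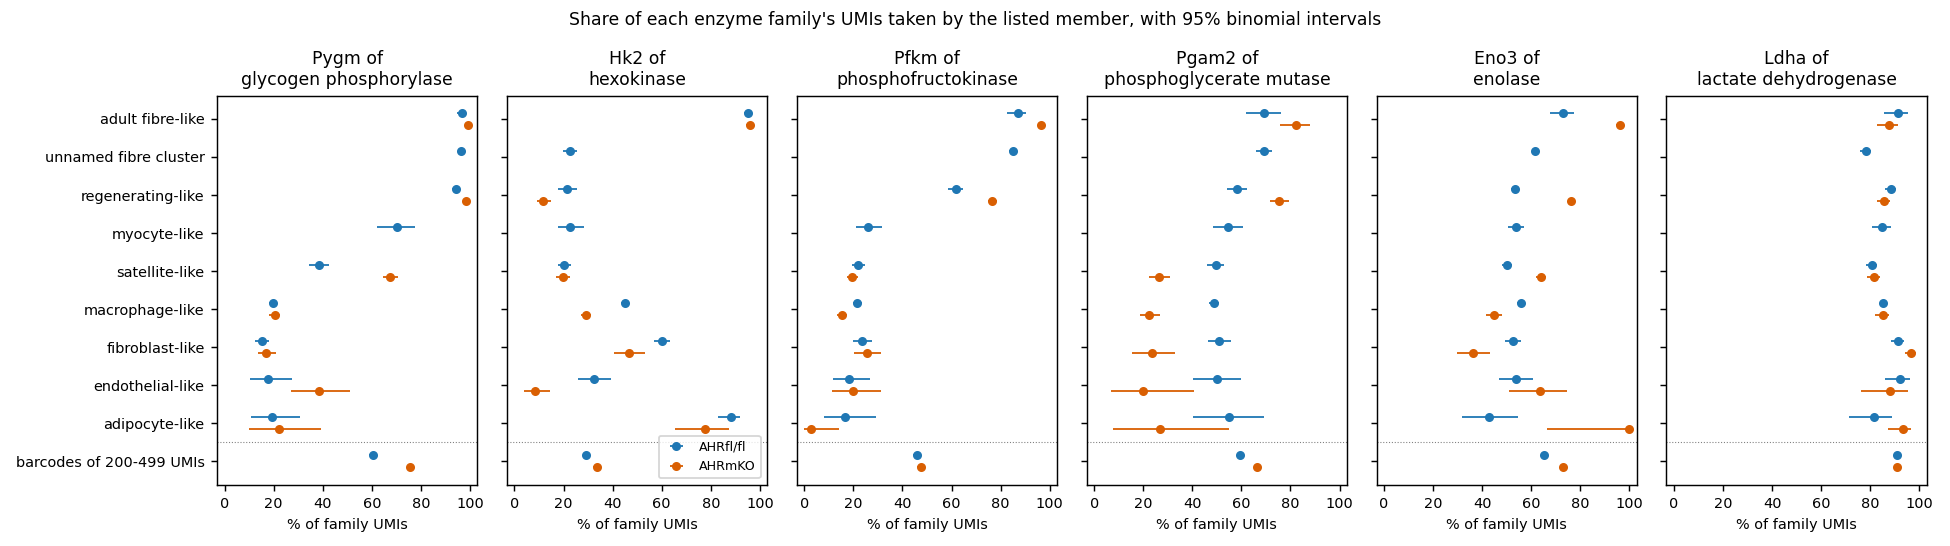
Percentage of an enzyme family's UMIs that come from the member named above each panel, by class and, under the dotted line, in barcodes of 200 to under 500 UMIs; blue is the library labelled AHRfl/fl, orange the library labelled AHRmKO, and bars are exact 95% binomial intervals. Hk2 is at 95.1% and 96.0% in adult fibre-like nuclei and at 21.4% and 11.8% in regenerating-like nuclei, while Pygm is at 94.1% or more in both.

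Per nucleus, thinned to 2000 UMIs, adult fibre-like nuclei had UMIs of 2.96 of the 10 enzymes on average in the control-labelled and 4.16 in the knockout-labelled library. Regenerating-like nuclei had 2.25 and 3.09. Macrophage-like nuclei had 1.81 and 0.918, the opposite order of the libraries. At least 5 of the 10 were seen in 15.5% and 41.1% of adult fibre-like nuclei. No enzyme was seen in 14.0% and 38.7% of macrophage-like nuclei. Gapdh and Aldoa, at 0.92 and 0.95 times their free RNA level in macrophage-like nuclei of the control-labelled library, were seen in 41.3% and 27.6% of them. In the other library they were seen in 6.17% and 9.90%. Pygm and Pkm went the other way, and the remaining enzymes were seen in fewer macrophage-like nuclei of the knockout-labelled library. The part of free RNA in these counts was not tested.

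Of 35 other genes of sugar uptake, glycolysis and glycogen metabolism, 33 had enough UMIs in adult fibre-like nuclei, of which 7 were higher in the knockout-labelled library (9.13% of all genes tested) and 3 lower (18.3%), with a median log2 ratio of 0.12 against -0.11 over all genes. Among the glycogen genes, Phkg1, a subunit of the kinase that activates phosphorylase (247 and 1055), and Gys1, glycogen synthase (95.7 and 456), were higher. The kinase subunits Phka1 and Phkb and the branching enzyme Gbe1 had log2 ratios of -0.28, -0.18 and -0.34, and Gyg and Ugp2 -0.05 and -0.02. Gpi1, Gpd1, Slc16a3 (a lactate exporter) and Pfkfb1 were also higher, and Pfkfb1 had the largest ratio, 3.88. Lower were Pdk4, the kinase that shuts pyruvate dehydrogenase (654 and 160), the glucose transporter Slc2a1 and Eno1. Adult fibre-like nuclei lay mostly in cluster 9 in the control-labelled library and in cluster 21 in the other, and Phkg1 was among the leading genes of cluster 21. The 35 genes were not compared within cluster 9 alone, so the part of cluster make-up in these ratios was not tested. In regenerating-like nuclei Slc2a4, Gpi1, Gpd1 and Phkg1 were higher (7.46% of all genes) and none of 32 was lower (17.4%). Of 8042 genes compared by their levels over 16 class and library points, Scn4a was among the 3 most like Pygm (Pearson's r 0.98), and the closest member to Pygm was Pfkm (0.97). The 3 genes most like Hk2 were Pnpla8, Tango2 and Mpc1 (0.90, 0.90 and 0.89), and no other member came closer than Aldoa at 0.41. For Gapdh they were Atp5g2, Rpl10 and Nme1 (0.99, 0.98 and 0.98), and for Pgam2 they were Tnnc2, Acta1 and Hrc (0.96, 0.94 and 0.93). These points share 2 libraries, their depth and their free RNA, so the correlations are descriptions only.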

How the data were processed

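The deposited files are raw UMI counts per gene and barcode for all barcodes, which the authors made without normalization; the matrix headers name Cell Ranger format 4, and the submitters' processing notes give Cell Ranger 7.0.1 and mm10. Intron and strand settings are not given in the sources used here. Barcodes of 2000 or more UMIs were kept under a limit on mitochondrial UMIs, 5% or the median plus 3 scaled deviations if that was larger (5.0% and 8.97%). The top 6.79% and 3.11% of Scrublet scores were left out as doublets (0.4% per 1000 nuclei). Both libraries were clustered together in scanpy 1.11.5 (2000 variable genes without the members and pathway genes, 30 components, 15 neighbours, Leiden resolution 0.8). A cluster was named where at least 3 markers stood 2-fold above the other clusters, and classes under 50 nuclei in a library gave no level.

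UMIs of a class were added up within each library and expressed as CPM, with exact Poisson intervals at 95%. For log2 ratios 0.5 CPM was added to each level, so changes of low genes are understated, with the exact conditional binomial interval. A gene counted as higher or lower past 2-fold with an interval without 0; backgrounds are genes with at least 10 UMIs. Shares have exact Clopper-Pearson intervals. Intervals cover counting error only, and with 1 library per group no value carries a p-value. The free RNA level used 9 fibre transcripts. Where it was subtracted, the macrophage-like percentage (18.1% and 15.8%) set it for every class. The remainder was then divided by the share of UMIs not taken as free RNA. The interval and call were run on simulated counts with counting error only, which cannot test them against the spread between nuclei, animals or libraries. Genes were named as members, as the pathway genes past 2-fold, and as the 3 genes most like a member (log2 of CPM plus 10, genes reaching 50 CPM). The 10 members and the lists were chosen with earlier results of these data known. The libraries held 151788328 and 113737134 UMIs. Positions came from GENCODE M21, matched for 32158 of 32285 genes. Python 3.11.15, numpy 2.4.6, scipy 1.17.1, pandas 2.3.3 and matplotlib 3.10.9 were used. Alternatives changed the UMI minimum, mitochondrial limit, doublets, clustering, naming, scaling, weighting, depth, free RNA and pseudocount. Some genes that these rules name are not reported here.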

Additional observations from a re-analysis of the deposited data

Results flagged for a closer look

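Eno3 had ratios of opposite sign between the libraries in 2 classes. In adult myofibre-like nuclei the library labelled AHRmKO was higher, with a log2 ratio of 1.63 (0.45 with the libraries clustered separately), and in macrophage-like nuclei it was lower, with a log2 ratio of -1.65. Each class had 1 library per group, so the difference between the classes was not tested. In macrophage-like nuclei of the library labelled AHRfl/fl its level of 102 CPM stood beside a free RNA level of 101. With that level subtracted and the remainder scaled up as described, 1.01 and 16.4 CPM were left. The opposite signs thus hold for unsubtracted counts only.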

How the results depend on the processing

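No paired analysis was possible because each group has 1 library and the labels carry no replicate numbers. Of the 31 ratios past 2-fold, all that could be recomputed kept their sign under each alternative, except that Pfkm in regenerating-like nuclei came to -0.030 at a minimum of 1000 UMIs. Free RNA subtraction left 10 of the 31 with a value. Gapdh came to 0, the lowest value it allows, in the library labelled AHRfl/fl in all 7 classes. Several smaller ratios changed sign. That of Hk2 in adult fibre-like nuclei ran from -0.62 to 1.77. Ranges that reached their upper end by subtraction were -1.02 to 2.67 (Pgk1) and -0.95 to 1.10 (Ldha) in macrophage-like, -0.41 to 1.83 (Pgk1), -0.53 to 2.59 (Ldha) and -0.11 to 0.89 (Pfkm) in satellite-like, -1.24 to 0.25 (Pfkm) in endothelial-like, -0.04 to 1.80 (Pkm) in adipocyte-like, -0.71 to 2.33 (Ldha) in regenerating-like and -0.30 to 2.19 (Pgam2) in adult fibre-like nuclei. Counts of enzymes moved more. Except for the cluster of both libraries and the added unnamed fibre cluster, treated above, no share over all genes is given for these counts. They are thus not set against a background. After subtraction 7 enzymes could be compared in adult fibre-like nuclei and 6 each in regenerating-like, satellite-like and macrophage-like ones. In fibroblast-like nuclei it was 4, in endothelial-like 3 and in adipocyte-like 2. In adult fibre-like nuclei 5 enzymes were higher and 0 lower with free RNA subtracted, and 2 were lower in the cluster of both libraries, an alternative chosen after seeing the data. In regenerating-like nuclei 2 were lower and 0 higher at a minimum of 1000 UMIs, 2 lower at 4000, 2 lower and 1 higher without a mitochondrial limit, 1 higher with doublets kept, 0 lower and 5 higher after subtraction, and 2 lower with the unnamed fibre cluster added, also chosen after the data were seen. In satellite-like nuclei 1 was higher at minimums of 1000 and 4000 UMIs, without a mitochondrial limit, at resolution 1.6, with separate clustering and with classes from marker UMIs, and 4 were higher and 0 lower after subtraction. In macrophage-like nuclei 2 were lower at a minimum of 4000 UMIs, and 0 lower and 3 higher after subtraction. In fibroblast-like nuclei 3 were lower with doublets kept, 3 lower and 1 higher with the mean over nuclei, 1 higher with thinned nuclei, and 1 lower and 3 higher after subtraction. In endothelial-like nuclei 0 were higher without a mitochondrial limit, with doublets kept and with thinned nuclei, 8 were lower and 0 higher at resolution 0.4, and 1 was lower after subtraction. In adipocyte-like nuclei 2 were higher at a minimum of 1000 UMIs, with doublets kept and with classes from marker UMIs, and 1 was lower with thinned nuclei and after subtraction. Against barcodes of 100 to under 200 UMIs, 1 enzyme was lower in regenerating-like nuclei of the library labelled AHRmKO. The cause of these moves was not tested, apart from the subtraction, which compares only enzymes above the free RNA level in both libraries. Of 1560 recomputed levels, 1048 stayed within the counting interval. Fibre type divisions with under 50 nuclei in a group gave no value. With 1 library per group, depth limits each level by counting error alone, and the spread between animals is unknown.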
